A study of Columba livia with 10 samples.

Results

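Axon guidance ligands and receptors are the cell surface and secreted proteins that steer growing nerve fibres, and in the mature cerebellum they are known for roles at synapses. Of 22547 gene names in the count tables of 10 birds, 61 began with EPHA, EPHB, EFNA, EFNB, SEMA, PLXN, ROBO, NTNG or UNC5, or with NTN or SLIT followed by a digit. The 58 of these with a mean of at least 1 CPM (a gene's reads scaled to a common library total) over the 10 libraries are the members described here, and all 58 also passed the filter on low counts. Of the 3 that fell short, ROBO3 had a mean of 0.892 CPM, EPHA1 of 0.582 and EPHA8 of 0.525. The members nearest above the limit were EFNA1 at 1.74 and EFNA3 at 1.97. UNC50 meets the rule by its spelling alone. It encodes a membrane protein of the Golgi and is no netrin receptor, and the median log2 fold change of the members was -0.33 with and without it.

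RNA was sequenced from the cerebellum of racing homers (Columba livia) kept in 1 loft and trained by the widowhood method. The race group comprised 5 birds killed after coming back from a competition flight of 300 km. The control group comprised 5 birds of like age that had not flown that day and were killed in the same way. The labels give neither sex nor strain beyond the breed, and nothing in them pairs birds across groups. Each library is taken as 1 bird. The library number in the table name differed from that in the sample title for 9 of the 10 records, and groups taken from the titles would move 6 tables. Every direction below rests on the record to which a table is attached. Log2 fold changes that change sign under the other link are given further below, and not in each member's own paragraph.

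The libraries held 17953704 to 23344086 gene counts. All 45 pairs of libraries differed by more than sampling noise, the closest pair having a chi-square per gene of 22.2. Of 195 protein-coding genes on W, the sex chromosome that only female birds carry, 93 to 95 reached 1 CPM in control 3, control 4 and control 5, against 24 to 33 in the remaining libraries. Granule cell markers summed to 3087 to 6399 CPM in control birds and 4478 to 6291 CPM in race birds, and were present in every bird. In control 4 the summed level of 17 forebrain genes was 474 CPM, against 103 to 150 CPM in the rest, with TBR1, a transcription factor of forebrain neurons, at 76.2 CPM and at most 2.59 CPM elsewhere. Control 1 had a scaling factor of 0.794, against 0.977 to 1.05 in the other libraries. Levels of genes and marker sums in CPM, above and below, are scaled by these factors (TMM, trimmed mean of M values). The limits of 1 CPM and the mean levels set against them use library totals without these factors.

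Most of the members work in 4 ligand and receptor systems. Ephrins are ligands bound to the membrane and signal to Eph receptor tyrosine kinases on touching cells, in both directions. Semaphorins bind plexins, with neuropilins as co-receptors for most class 3 members. Netrin 1 attracts or repels axons, and UNC5 receptors carry the repulsive response. SLIT proteins repel axons through ROBO receptors.

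Between race and control birds no member passed. The threshold was a two-sided p of edgeR's quasi-likelihood test, adjusted by the Benjamini-Hochberg method, under 0.05, and 0 of 58 members and 0% of the 14172 genes tested met it. Limma voom also called 0 members, and DESeq2 called 2 of 56 with an adjusted p, against 1.9% of all genes. These were SEMA4D, on the higher side with 1.18% of all genes, and SLIT1, on the lower side with 0.72%. At an unadjusted p under 0.05 there were 2 members higher in race birds, 3.45% against 6.19% of all genes. On the lower side there were 10, 17.2% against 7.14% of all genes, and in either direction 12, 20.7% against 13.3%. These counts changed with the method. By plain library size scaling 5 members were higher and 5 lower, beside 1087 and 597 of all genes. Limma voom gave 2 higher and 5 lower, beside 1020 and 640 of all genes. With 1 library left out 4 to 12 members were lower, beside 633 to 1398 of all genes. A negative log2 fold change was found in 42 of 58 members and in 52.6% of all genes, and the median was -0.33 in the members and -0.03 in all genes tested.

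The lower values rested in large part on 2 control birds. Without control 1 the members' median was -0.13, with 3 members higher (6.99% of all genes) and 10 lower (8.21% of all genes) at an unadjusted p under 0.05. Without control 4 it was -0.23, with 2 higher (6.63%) and 6 lower (8.04%). Without both it was -0.10, with UNC50 the 1 member lower (5.89%) and SEMA4D the 1 member higher (6.72%). In the plot of fold changes the values without both birds lie nearer to 0 for most of the members that stood lowest. These 2 birds were chosen after the data were seen. Leaving out high controls moves such values toward 0 by itself, so the shift is a description only.

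The link between tables and birds bears on these values as well. If groups followed the sample titles, the members' median would be -0.15, with 5 members higher (4.17% of all genes) and 10 lower (7.76%) at an unadjusted p under 0.05. EPHA6, NTNG1 and SEMA3E then had positive log2 fold changes, as did SLIT1 at 0.44, UNC5A at 0.40 and EFNA3 at 0.11. Those of EPHA7 (0.82), PLXNA4 (0.23) and SEMA6D (0.15) also turned positive. For EPHA10 (-0.42) and EFNA4 (-0.12) the sign turned negative, and the further members that changed sign are listed in the closing section. Under that link EFNA1, EPHB3, NTNG1 and SEMA6C, 4 members against 2.61% of all genes, had groups that did not overlap.

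**Figure D1:**
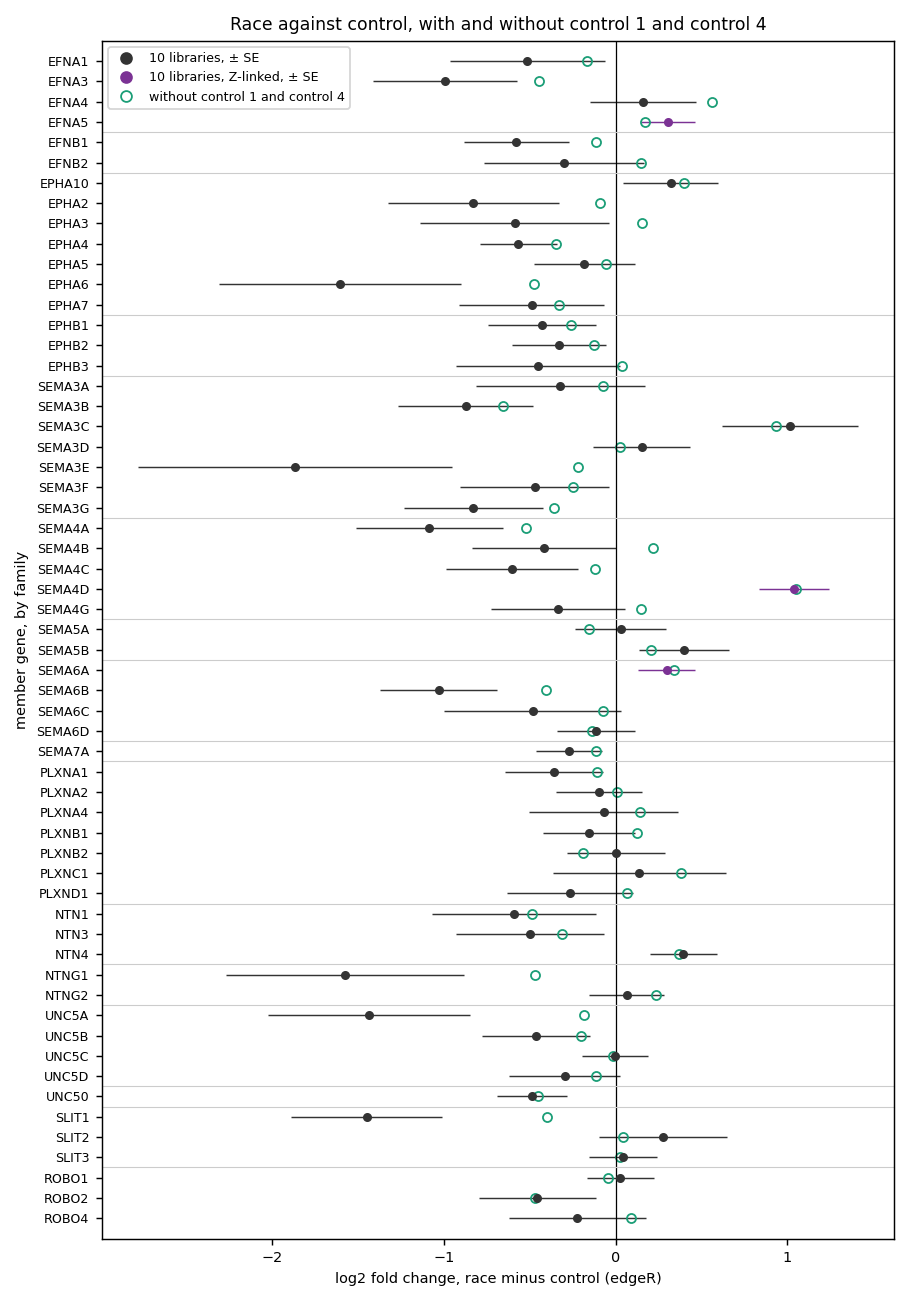
Log2 fold change of race minus control for each of the 58 members, by family, from edgeR (points with bars of 1 SE, purple for genes on the Z chromosome), with the value without control 1 and control 4 as open circles. SEMA4D stands at 1.04 and 1.05 in these fits, while SLIT1 moves from -1.45 to -0.40.

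The member with the smallest p was SEMA4D, a class 4 semaphorin anchored in the membrane that signals through plexin-B1. It stood at 56.0, 69.7, 66.0, 92.2 and 75.9 CPM in control 1 to control 5, and at 165, 108, 123, 137 and 207 CPM in race 1 to race 5. Every race library lay above every control library. Groups without overlap were found in 2 members, 3.45% against 4.33% of all genes tested, and on the higher side in SEMA4D alone, against 2.65%. Control birds averaged 72.0 ± 13.4 CPM and race birds 148 ± 39.0 CPM (SD, n = 5 each), so the log2 fold change was 1.04 ± 0.20 (SE). The adjusted p of edgeR's quasi-likelihood test was 0.268, and it ran from 0.1095 to 0.521 with 1 library left out.

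SEMA4D lies on the Z chromosome, of which male birds carry a pair and females a single copy. Genes on Z stood higher in race birds as a whole, with a median log2 fold change of 0.45 over 682 genes and 570 of them positive. The median distance of Z genes from their median over the birds, on the log2 scale, varied among controls. It was -0.49, -0.05, -0.42, -0.03 and -0.53 in control 1 to control 5, and 0.09 to 0.20 in race birds. Control 1 and control 2 showed as few W genes as the race libraries did, and they held 2 of the 3 lowest SEMA4D levels of the 10 birds. Without control 3, control 4 and control 5 the log2 fold change was 1.24 ± 0.28, and the adjusted p of edgeR's quasi-likelihood test was 0.0202 in a fit that called 23.2% of all genes. By the groups of the sample titles it was 0.15. The part of Z dosage in the SEMA4D values was not tested beyond these fits.

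EFNA5 and SEMA6A are the other members on Z. EFNA5, an ephrin-A ligand of topographic maps in the visual system, stood at 34.4, 42.8, 36.9, 34.3 and 47.3 CPM in the controls and at 40.0, 44.0, 50.9, 51.5 and 55.5 CPM in race 1 to race 5. The groups overlapped, and the log2 fold change was 0.30 ± 0.16. SEMA6A, a class 6 semaphorin known for guiding granule cell migration in the mouse cerebellum, stood at 117, 109, 82.4, 89.3 and 87.2 CPM in the controls and at 131, 135, 108, 90.0 and 131 CPM in race libraries. The 3 controls with W-linked expression held the lowest SEMA6A values but race 4 lay close to control 4, and the log2 fold change was 0.30 ± 0.17, or 0.08 without those 3 controls.

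SLIT1, a secreted repellent of axons, was the other member whose groups did not overlap. It stood at 43.0, 16.0, 15.4, 73.7 and 15.4 CPM in control 1 to control 5 and at 11.5, 15.3, 9.23, 11.8 and 12.1 CPM in race 1 to race 5. The gap between the groups was narrow, with 15.3 CPM in race 2 below 15.4 CPM in control 3, and such a separation on the lower side was found in 1.67% of all genes. SLIT1 had a log2 fold change of -1.45 ± 0.44, with an adjusted p of 0.307 by edgeR's quasi-likelihood test. Control 1 and control 4 were its highest birds, and without both the value was -0.40. Leaving out high controls brings such a shift by itself. Without these 2 birds the groups did not overlap either, as for 10% of all genes. Control 3 and race 2, which set the gap, both remained in that fit, so it could not test the separation. By plain library size scaling the groups did overlap.

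**Figure D2:**
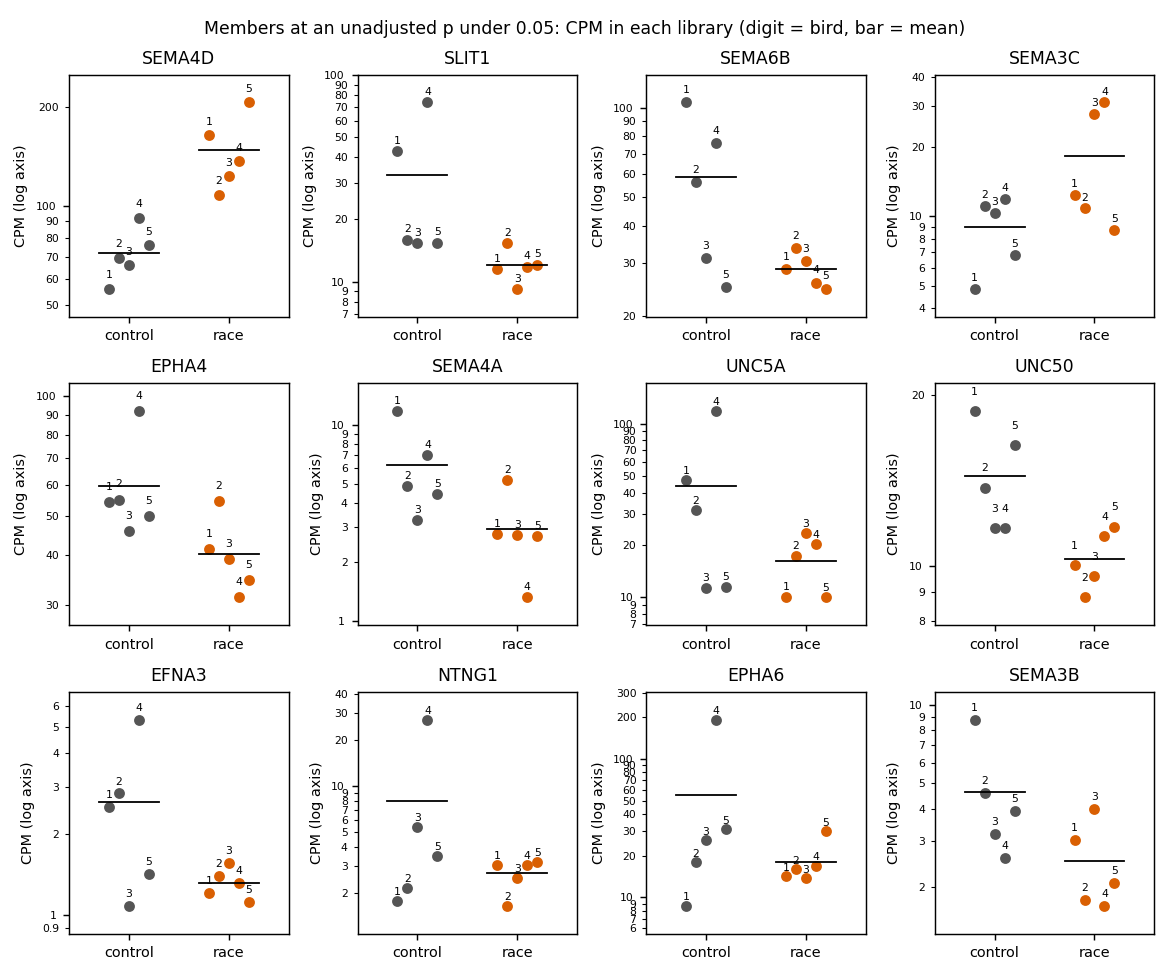
CPM on a log axis in each library for the 12 members at an unadjusted p under 0.05, with the digit of the bird above each point and the group mean as a bar. SEMA4D and SLIT1 are the 2 whose groups do not overlap, and control 4 is the highest bird for SLIT1, EPHA4, UNC5A, EFNA3, NTNG1 and EPHA6.

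Among ephrins, EFNA3 was the member at an unadjusted p under 0.05. It stood at 2.54, 2.84, 1.09, 5.33 and 1.43 CPM in the controls and at 1.12 to 1.56 CPM in race birds, for a log2 fold change of -0.99 ± 0.42 that was -0.45 without control 1 and control 4. EFNB1, a ligand of EphB receptors, had the most counts of its family. It stood at 174, 73.4, 53.1, 76.6 and 62.0 CPM in the controls and at 65.3, 64.6, 62.9, 39.0 and 62.6 CPM in race libraries, so that control 1 was high, race 4 low and the other 8 birds lay between 53.1 and 76.6. For EFNB2, also an EphB ligand, control 4 stood at 22.2 CPM and all others at 2.698 to 8.96 CPM. EFNA1 was highest in control 1 at 4.26 CPM, and EFNA4 ranged from 3.31 to 7.01 CPM with groups that overlapped.

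EphA receptors, which bind mainly ephrin-A ligands, differed most in control 4. Their summed level was 624 CPM there, 204, 203, 262 and 261 CPM in control 1, control 2, control 3 and control 5, and 235, 199, 202, 174 and 300 CPM in race 1 to race 5. EPHA6 stood at 8.69, 17.9, 25.8, 192 and 31.0 CPM in the controls and at 14.2, 15.9, 13.7, 17.0 and 29.9 CPM in race libraries. EPHA3 was at 90.7 CPM in control 4 and 8.01 to 28.8 CPM in the other birds, and EPHA7 81.8 CPM against 10.1 to 44.2 CPM. For EPHA6 the log2 fold change was -1.61 ± 0.70, or -0.21 without control 4, and for EPHA3 it turned from -0.59 to 0.33.

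EPHA4, a receptor that takes ephrins of both classes, stood at 54.4, 55.1, 46.0, 91.9 and 50.1 CPM in the controls and at 41.5, 54.7, 39.1, 31.3 and 34.6 CPM in race libraries. Race 2 was the 1 race bird within the control values, and the other 4 lay below every control. The fitted log2 fold change was -0.57 ± 0.22 (unadjusted p = 0.0257 and adjusted p = 0.342 by edgeR's quasi-likelihood test), and -0.35 without control 4. EPHA5, the EphA member with most counts, spanned 66.4 to 157 CPM in control birds and 57.1 to 166 CPM in race birds, with race 5 the highest bird. EPHA10, an Eph receptor without kinase activity, stood at 8.59 to 18.3 CPM and 11.2 to 21.3 CPM, and EPHA2 at 6.96 CPM in control 1 and 0.693 to 2.10 CPM elsewhere.

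EphB receptors followed another bird. EPHB1 stood at 317, 212, 111, 85.8 and 120 CPM in the controls and at 123, 143, 114, 110 and 138 CPM in race libraries. Control 1 and control 2 were the highest birds and control 4 the lowest. EPHB3 showed the same top bird, with 51.0 CPM in control 1 and 7.63 to 22.9 CPM elsewhere, and EPHB2 stood at 24.9 CPM against 6.93 to 16.3 CPM. Log2 fold changes of EPHB1, EPHB2 and EPHB3 were -0.43 ± 0.31, -0.33 ± 0.27 and -0.45 ± 0.48, and EPHB3 stood at 0.17 without control 1.

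Class 3 semaphorins are secreted and had 2 members at an unadjusted p under 0.05. SEMA3C stood at 4.86, 11.1, 10.3, 11.9 and 6.78 CPM in the controls and at 12.4, 10.8, 27.8, 31.1 and 8.74 CPM in race 1 to race 5. Race 3 and race 4 stood far above all other birds, race 1 lay just above the highest control, and race 2 and race 5 lay within the control values. SEMA3C had a log2 fold change of 1.02 ± 0.40 (unadjusted p = 0.0252 and adjusted p = 0.341 by edgeR's quasi-likelihood test), and 0.04 with groups from the sample titles. SEMA3B stood at 8.79, 4.59, 3.21, 2.59 and 3.92 CPM in the controls and 1.70 to 4.01 CPM in race birds, for a log2 fold change of -0.87 ± 0.39. Without control 1 it stood at -0.53.

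SEMA3E, which unlike most of its class binds plexin-D1 without a neuropilin, reached 15.9 CPM in control 4 and 0.324 to 1.67 CPM in the other 9 birds. Its log2 fold change of -1.87 ± 0.91 became 0.10 without control 4. SEMA3A, a repellent of many axons, was also highest in control 4, at 26.8 CPM against 4.05 to 18.6 CPM. SEMA3F and SEMA3G were highest in control 1, at 51.2 and 54.1 CPM, against 11.6 to 34.0 CPM for SEMA3F and 10.3 to 21.8 CPM for SEMA3G in the other birds. SEMA3D kept within 4.91 to 10.8 CPM.

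In class 4, members other than SEMA4D had their highest level in control 1. SEMA4A stood at 11.8, 4.88, 3.26, 7.04 and 4.42 CPM in the controls and at 2.79, 5.22, 2.74, 1.32 and 2.72 CPM in race birds, for a log2 fold change of -1.08 ± 0.43 (unadjusted p = 0.0258). Race 2 alone of the race birds lay inside the control range, and the value was -0.52 without control 1 and control 4. SEMA4G stood at 207 CPM in control 1 and 41.8 to 85.6 CPM elsewhere, SEMA4C at 54.9 against 11.4 to 24.7 CPM and SEMA4B at 33.0 against 6.87 to 21.3 CPM.

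SEMA6B, a transmembrane semaphorin that binds class A plexins, stood at 104, 56.0, 31.2, 75.8 and 24.9 CPM in the controls and at 28.6, 33.7, 30.5, 25.8 and 24.6 CPM in race 1 to race 5. The race birds lay close together at the low end of the controls. SEMA6B had a log2 fold change of -1.03 ± 0.34 (unadjusted p = 0.0108 and adjusted p = 0.324 by edgeR's quasi-likelihood test), and -0.41 without control 1 and control 4. SEMA6C was highest in control 1 at 9.60 CPM against 1.35 to 4.54 CPM, and SEMA6D lay within 21.4 to 49.7 CPM.

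SEMA5A and SEMA5B, semaphorins with thrombospondin repeats, were lowest or near lowest in control 1, where SEMA5A stood at 44.4 CPM against 61.8 to 118 CPM in the other birds. SEMA5B stood at 72.3, 71.0, 133, 82.1 and 121 CPM in the controls and at 133, 151, 69.7, 109.8 and 168 CPM in race birds, for a log2 fold change of 0.40 ± 0.26. SEMA7A, a semaphorin with a lipid anchor, ranged from 77.6 to 130 CPM and from 61.7 to 96.5 CPM, with a log2 fold change of -0.27 ± 0.19. In neither of these classes did the groups separate.

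Plexins, the semaphorin receptors, had no member at an unadjusted p under 0.05, with log2 fold changes from -0.36 for PLXNA1 to 0.14 for PLXNC1 over 7 members. PLXNA2 had the most counts and stood at 448, 271, 292, 309 and 363 CPM in the controls and at 341, 363, 188, 222 and 461 CPM in race libraries. PLXNB1, the receptor of SEMA4D, stood at 561, 248, 242, 193 and 231 CPM in the controls and at 247 to 294 CPM in race libraries. Its groups overlapped and its log2 fold change was -0.15 ± 0.27, beside the 1.04 of its ligand. Without control 1, its highest bird, the PLXNB1 value was 0.20. PLXNC1, a receptor of SEMA7A, ranged from 8.79 CPM in control 1 to 92.2 CPM in control 4, wider than its race values of 25.8 to 74.3 CPM. PLXND1 was highest in control 1 at 367 CPM, PLXNB2 lowest there at 19.7 CPM, and PLXNA4 lowest there at 5.07 and highest in control 4 at 37.0 CPM.

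NTN1 stood at 201.5, 169.7, 54.3, 30.9 and 56.8 CPM in control 1 to control 5 and at 55.6, 101, 80.5, 67.4 and 36.0 CPM in race 1 to race 5. Control 1 and control 2 lay above all race birds, while control 4 lay below them. The fitted log2 fold change was -0.59 ± 0.48 over all birds and -1.44 ± 0.32 without control 3, control 4 and control 5. The adjusted p of edgeR's quasi-likelihood test was 0.0190 in that fit of 2 against 5, which called 23.2% of all genes. NTN3 followed with 54.2 CPM in control 1 and 8.29 CPM in control 4. NTN4, a netrin related to laminins, stood at 57.5, 52.1, 46.9, 49.1 and 63.1 CPM in the controls and at 63.0, 54.9, 105, 75.6 and 55.8 CPM in race birds, for a log2 fold change of 0.39 ± 0.20.

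NTNG1 and NTNG2 are netrin-G proteins, which are anchored by lipid and bind partners on synapses in place of netrin receptors. NTNG1 stood at 1.78, 2.16, 5.38, 27.2 and 3.48 CPM in the controls and at 3.04, 1.64, 2.49, 3.06 and 3.20 CPM in race libraries. Control 4 was again the high bird, and the log2 fold change of -1.58 ± 0.69 was -0.26 without it. NTNG2 ranged from 57.6 to 132 CPM and 71.2 to 90.0 CPM, with a log2 fold change of 0.06 ± 0.22.

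Of the UNC5 receptors, UNC5A stood at 47.1, 31.7, 11.4, 118 and 11.5 CPM in the controls and at 10.1, 17.4, 23.4, 20.3 and 10.0 CPM in race libraries. Control 3 and control 5 lay within the race values and the other 3 controls above them. The log2 fold change of -1.44 ± 0.59 was -0.64 without control 4 and -0.18 without control 1 and control 4. UNC5B was highest in control 1 at 97.1 CPM against 25.9 to 52.3 CPM. UNC5C had the most counts and stood level, at 89.2 ± 18.6 CPM in control birds and 89.1 ± 18.5 CPM in race birds (SD, n = 5 each), and UNC5D lay within 11.6 to 38.8 CPM. UNC50 averaged 14.4 ± 3.07 and 10.3 ± 1.20 CPM, which gave a log2 fold change of -0.49 ± 0.20 (unadjusted p = 0.0338).

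SLIT2 and SLIT3 did not share the pattern of SLIT1. SLIT2 stood at 21.3, 22.5, 65.6, 48.3 and 72.7 CPM in the controls and at 53.4, 47.8, 45.7, 38.6 and 94.2 CPM in race libraries. Control 1 and control 2 were the lowest birds, the reverse of their place for NTN1 and EPHB1. SLIT2 had a log2 fold change of 0.28 ± 0.37, and 1.36 ± 0.35 without control 3, control 4 and control 5 (adjusted p = 0.0270 by edgeR's quasi-likelihood test). That fit set 2 controls, control 1 among them, against 5 race birds and called 23.2% of all genes. SLIT3 averaged 110.4 ± 22.4 CPM in control birds and 114 ± 26.5 CPM in race birds.

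ROBO1, a SLIT receptor with the most counts of its family, averaged 107 ± 20.4 and 109.7 ± 26.6 CPM, and its log2 fold change was 0.03 ± 0.20. ROBO2 stood at 12.4, 33.6, 39.2, 59.7 and 34.0 CPM in the controls and at 23.04, 39.7, 26.2, 20.7 and 21.0 CPM in race libraries, from its lowest level in control 1 to its highest in control 4. ROBO4, a receptor of blood vessels, was highest in control 1 at 22.2 CPM against 4.32 to 12.6 CPM. The endothelial markers summed to 207 to 356 CPM in control birds and 202 to 408 CPM in race birds, and their part in ROBO4 was not tested. ROBO3 fell outside the members but stood at 155 counts in control 4 against 0 to 6 counts in the other birds.

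**Figure D3:**
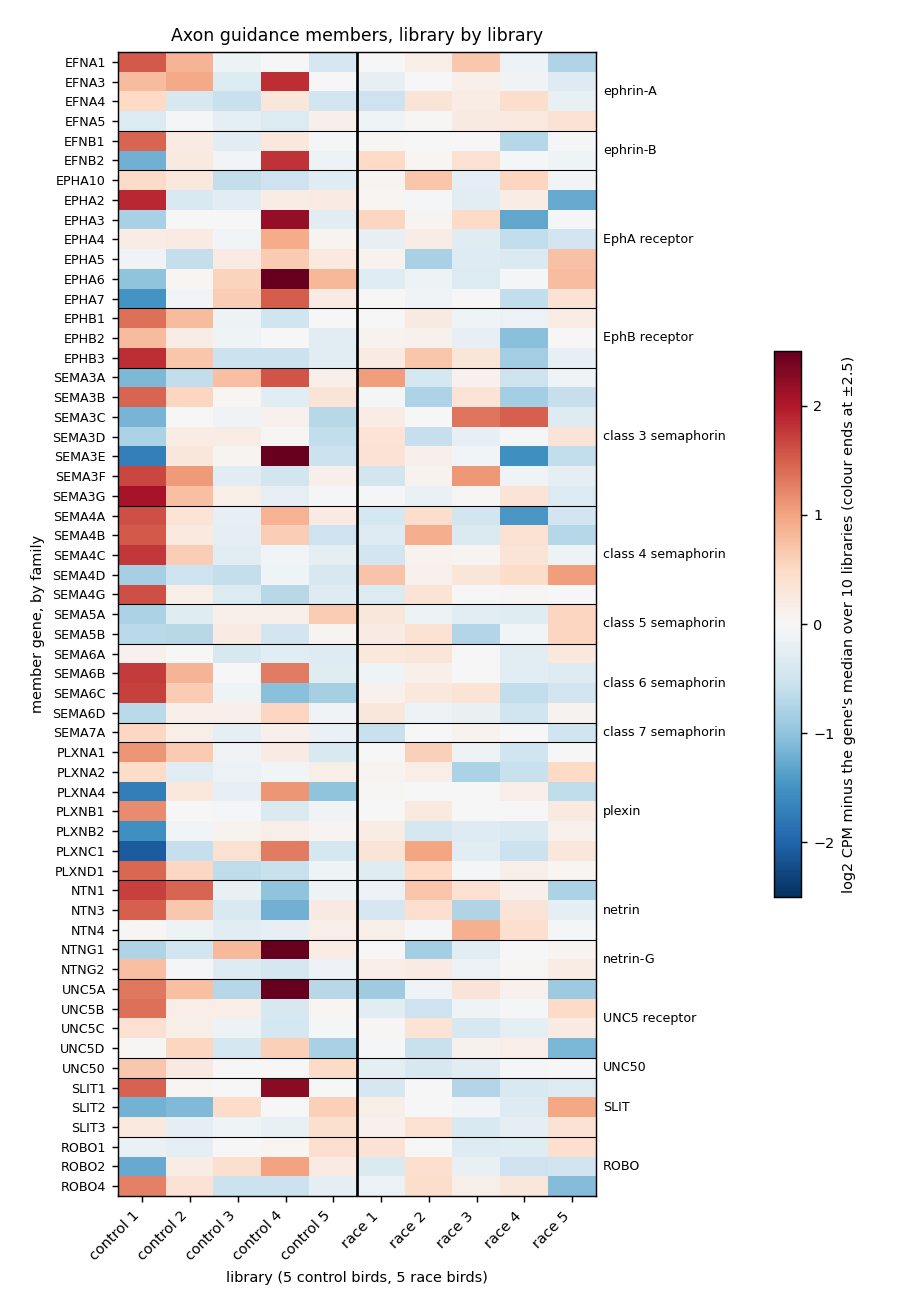
Log2 CPM (prior count 2) of each of the 58 members minus its median over the 10 libraries, by family, with control birds left and race birds right of the line. Control 1 holds the highest value of 27 members and the lowest of 16, and control 4 the highest of 16.

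Taken library by library, the members set control 1 and control 4 apart from the other 8 birds. Control 1 held the highest value of 27 members and the lowest of 16. The 46.6% of members highest there compare with 31.4% of all genes tested, and the 27.6% lowest there with 32.4%. Control 4 held the highest value of 16 members, 27.6% against 14.8% of all genes, and the lowest of 9, 15.5% against 10.6%. Control 2 held the highest and the lowest value of 0 members, against 5.27% and 9.11% of all genes.

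The mean size of a member's distance from its median over the birds was 0.78 on the log2 scale in control 4, where it was 0.41 over all genes. In control 1 it was 1.08 against 0.87. In the other 8 libraries it lay between 0.25 and 0.40 in the members and between 0.26 and 0.43 in all genes. Control 4 thus differed more in the members than over all genes by this measure, for which no test was made. High values there were not particular to the members. Of 42 partners and co-receptors, a list described below, 14 were highest in control 4 and 4 lowest. Of 61 effectors 6 were highest there and 10 lowest.

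A level over 3 times the median of the other 9 birds was reached by 13 members in control 1, by 10 in control 4 and by 0 in each of the other 8 libraries. In control 1 this held for 22.4% of members and 7.82% of 13458 genes with a mean of at least 1 CPM. In control 4 it held for 17.2% of members and 3.45% of those genes. The 13 in control 1 were EFNA1, EPHA2, EPHB3, NTN1, NTN3, SEMA3F, SEMA3G, SEMA4A, SEMA4B, SEMA4C, SEMA4G, SEMA6B and SEMA6C. The 10 in control 4 were EFNA3, EFNB2, EPHA3, EPHA6, NTNG1, PLXNC1, SEMA3A, SEMA3E, SLIT1 and UNC5A.

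**Figure D4:**
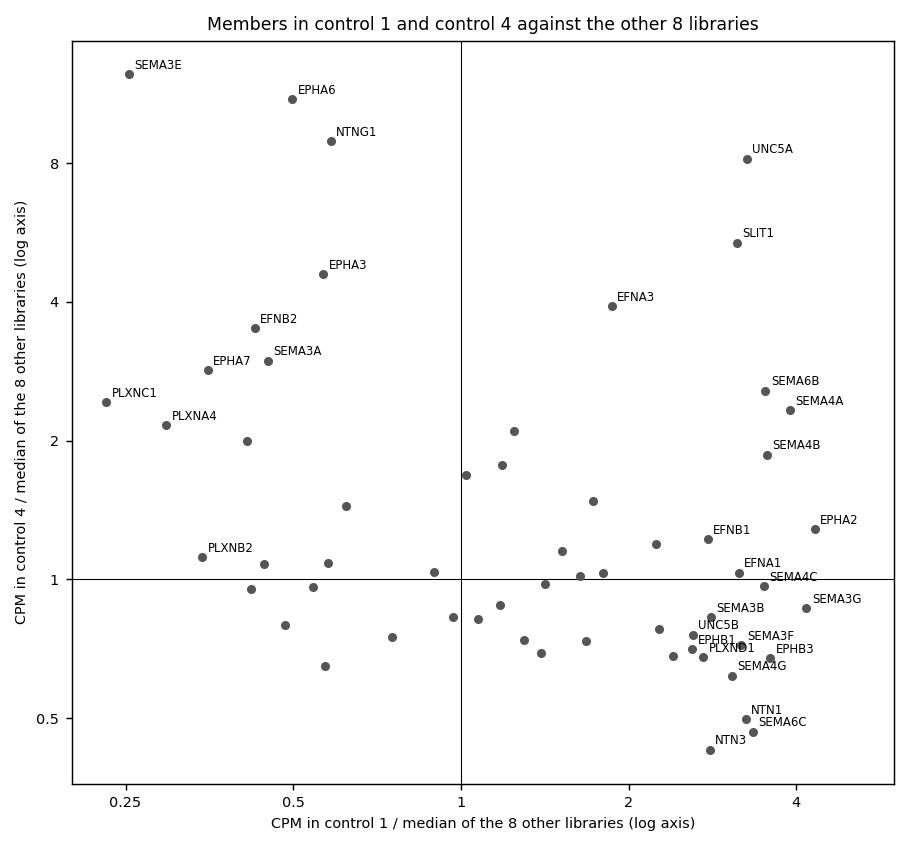
CPM of each member in control 1 (horizontal) and control 4 (vertical), each divided by the member's median over the other 8 libraries, on log axes. Of 23 members at over 2 times that median in control 1 and 15 in control 4, the 4 that exceed it in both are SEMA4A, SEMA6B, UNC5A and SLIT1. The 2 birds were chosen after the data were seen, and the shares over all genes were not computed for these counts.

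The members that stood high in control 4 did so beside forebrain genes. Besides TBR1, LHX6 stood at 34.1 CPM in this bird and no higher than 1.55 CPM in others. The sum of granule cell markers was at its lowest there, at 3087 CPM, and 9 of 13 such markers had their lowest value in that bird. ZIC1, 1 of the 9, stood at 119 CPM against 221 to 394 CPM, while GABRA6 at 53.3 CPM was above 24.0 CPM in control 1. In whole tissue more cells of a type and more RNA per cell cannot be told apart, and the part of forebrain tissue in the control 4 values of EPHA6, SEMA3E, NTNG1 and the others was not tested.

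Cell type markers in control 1 did not go one way. Purkinje cell markers summed to 12230 CPM there, against 3825 to 6117 CPM in the other 9 birds, but ALDOC, a glycolytic enzyme that Bergmann glia also express, made up 10530 CPM of it. Without ALDOC the sum was 1702 CPM in control 1, the lowest of the 10 birds, against 1716 to 2253 CPM. Of 14 Purkinje cell markers tested, 4 were at their highest in control 1 and 5 at their lowest, and of 13 granule cell markers 8 were highest and 3 lowest there. The part of these cells in the control 1 values was not tested.

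The members highest and lowest in control 1 also differed in the length of the gene. The 27 highest there had a median gene span, introns included, of 26.6 kb, and the 16 lowest there one of 196 kb. Across the 58 members the Spearman correlation of span with the distance from the median was -0.71 in control 1 and -0.54 in control 2. It was 0.50 in control 3, 0.47 in race 1 and 0.54 in race 5, and between -0.37 and 0.27 in the other 5 libraries. Over all genes tested these correlations were weaker, at -0.42 in control 1, -0.21 in control 2 and 0.24 in race 5. Genes share a library in such a correlation, so it is given as a description.

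**Figure D5:**
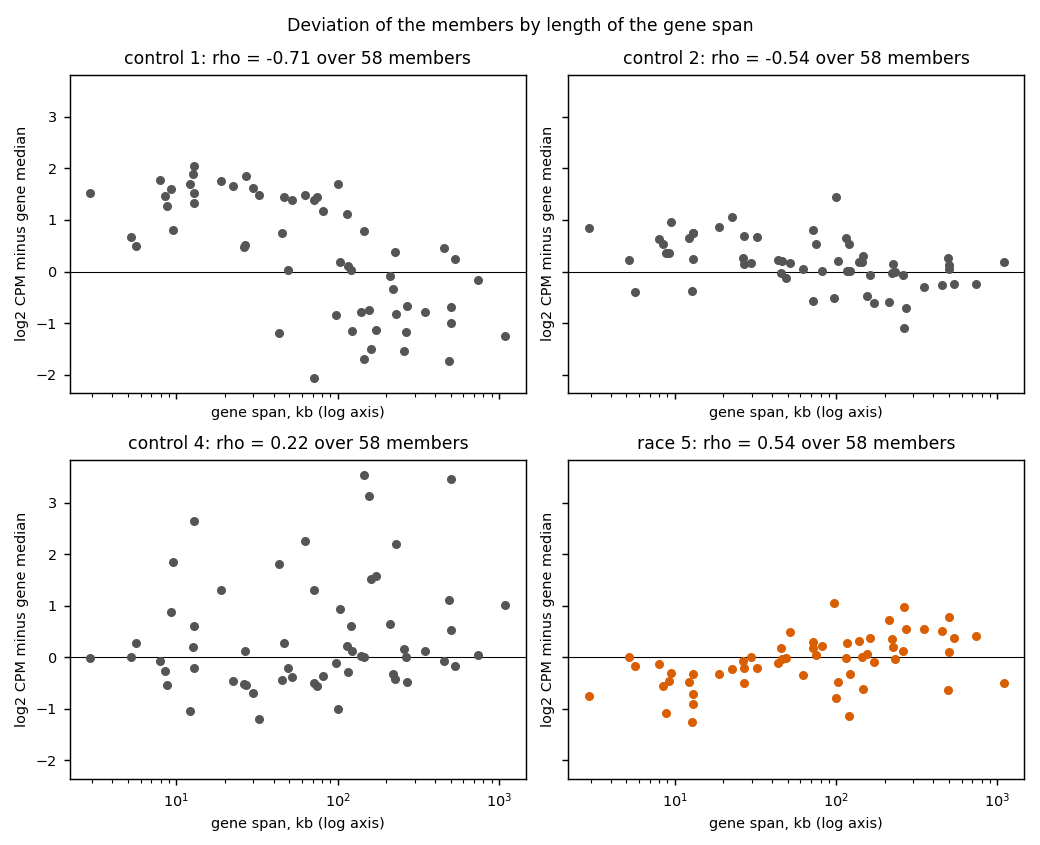
Log2 CPM minus the member's median over 10 libraries (vertical) against the length of the gene span in kb on a log axis, for the 58 members in 4 libraries. Short members stand high and long members low in control 1 (rho = -0.71), and the order is turned in race 5 (rho = 0.54).

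Axon guidance members are long genes, with a median span of 78.0 kb against 18.3 kb for all genes tested, and 44.8% of them exceed 100 kb against 10.4% of all genes. The shorter 29 members had a median log2 fold change of -0.47 with 24 lower in race birds, and the 29 longer members one of -0.12 with 18 lower. Over all genes tested the medians on either side of 78.0 kb were -0.05 and 0.08. In control 1 the shorter members stood 1.45 above their median over the birds on the log2 scale and the longer ones 0.68 below (-0.68), while over all genes the values were 0.03 and -0.70. The part of gene length in the fold changes was not tested.

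Leaving out the birds with many W genes set control 1 and control 2 against the 5 race birds. By edgeR's quasi-likelihood test that fit called 18 of 58 members (23.2% of all genes), 16 of them lower (12.7% of all genes) and 2 higher (10.5%), and in 22 the groups did not overlap (40.5%). The 2 that rose were SEMA4D and SLIT2. Those that fell were EFNB1, EPHB1, EPHB3, NTN1, NTN3, PLXNA1, PLXND1, SEMA3B, SEMA3F, SEMA3G, SEMA4C, SEMA4G, SEMA6B, SEMA6C, SLIT1 and UNC5A, with adjusted p from 0.0109 for SEMA6B to 0.0470 for SEMA6C. EPHA6, EPHA3, NTNG1 and SEMA3E, which stood lower in race birds over all libraries, had positive log2 fold changes here, between 0.20 and 0.45. The comparison rests on 2 controls, of which control 1 stands apart from all other libraries. A term for W-linked expression in the fit of all 10 birds called 19 members (30.6% of all genes), 17 lower (16.3%) and 2 higher (14.3%). Only controls had many W genes, so its race effect also compares control 1 and control 2 with the race birds. The log2 fold change of NTN1 was -1.44 without control 3, control 4 and control 5 and -1.45 with the term. The term is therefore no separate check on the fit above.

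Other genes of these pathways were read from lists drawn up from general knowledge. Of 42 partners and co-receptors tested, 0 passed by edgeR's quasi-likelihood test, and 3 stood higher (7.14%, against 6.19% of all genes) and 6 lower (14.3%, against 7.14%) at an unadjusted p under 0.05, with a median log2 fold change of -0.20. PTPRD, a receptor phosphatase at synapses, stood at 57.95 to 192 CPM in control birds and 264 to 369 CPM in race birds, for a log2 fold change of 1.18 ± 0.27. RGMB, a ligand of neogenin, stood at 19.6 to 50.7 CPM and 59.4 to 89.5 CPM, a log2 fold change of 1.10 ± 0.25. Neither gene's groups overlapped, where 2.65% of all genes tested separated on the higher side. Both lie on the Z chromosome, as does PTCH1, the third on the higher side. RTN4RL2, a relative of the Nogo receptor, had 24.7 CPM in control 4 and no more than 3.18 CPM elsewhere.

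Of 61 effectors inside the cell, 0 passed by edgeR's quasi-likelihood test, 4 stood higher (6.56%, against 6.19% of all genes) and 5 lower (8.2%, against 7.14%) at an unadjusted p under 0.05, and the median log2 fold change was -0.05. Both shares, like that of partners on the higher side, were near those of all genes, and the genes named are those of smallest p in each list. SSH1, a phosphatase that activates cofilin, stood at 117, 122, 115, 79.4 and 88.3 CPM in the controls and at 150.1, 195, 205, 197 and 166 CPM in race 1 to race 5. All race birds lay above all controls, as they did for 2.65% of all genes tested. The log2 fold change was 0.80 ± 0.17, with an adjusted p of 0.268 by edgeR's quasi-likelihood test. FARP2, a Rac activator downstream of class 3 semaphorins, stood at 15.4 to 25.8 CPM and 29.5 to 43.5 CPM, a log2 fold change of 0.76 ± 0.19. DPYSL3, of the collapsin response mediator family, stood at 16.7 to 35.6 CPM and 11.97 to 14.2 CPM, a log2 fold change of -0.92 ± 0.23. SSH1 and FARP2 lie on chromosomes 17 and 9 and DPYSL3 on chromosome 14, so none of these is Z-linked.

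Markers of other cell types are given for comparison, and 0 of them passed by edgeR's quasi-likelihood test. Of 12 oligodendrocyte markers tested, 12 had negative log2 fold changes, 6 of them at an unadjusted p under 0.05 (50%, against 7.14% of all genes). Of these 12 markers 8 were highest and 2 lowest in control 1, and 6 were lowest in race 3. Their sums overlapped, at 2761 to 6096 CPM in control birds and 2041 to 4368 CPM in race birds. Of 13 astrocyte and Bergmann glia markers 11 were negative and 5 lower at an unadjusted p under 0.05 (38.5%), with sums of 2269 to 4069 CPM and 1643 to 2422 CPM. Of 12 endothelial and pericyte markers 1 was negative and 5 were higher at an unadjusted p under 0.05 (41.7%, against 6.19% of all genes), with a median log2 fold change of 0.45. Choroid plexus and ependymal markers summed to 34.4 to 51.8 CPM in controls and 23.3 to 27.0 CPM in race birds without overlap. Of 5 such markers tested only 3 were negative, and 1 was lower at an unadjusted p under 0.05 (20%, against 7.14% of all genes). That 1 was TPPP3, at 19.2 to 32.1 CPM in controls and 6.84 to 14.8 CPM in race birds. TPPP3 made up a large part of the sums in controls. The part of glia and vessels in the members' values was not tested. SEMA4D, which oligodendrocytes of mammals are known to express, had a log2 fold change of 1.04 beside a median of -0.64 over the oligodendrocyte markers. Which cells held SEMA4D RNA in these birds was not tested.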

How the data were processed

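Cerebellum RNA, with integrity numbers of 9.6 to 10.0, was read as pairs of 100 bp, per the labels' protocols. The authors deposited raw read counts per gene, 1 table per bird, made with fastp 0.23.2, STAR 2.7.10a and HTSeq 0.13.5 per the submitters' processing notes. The sources used here give no parameters, strand setting, annotation or genome build, so reads of overlapping or antisense genes cannot be told apart. Rows that name no gene held 18.1% to 23.4% of counts and were left out.

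Low genes were removed with filterByExpr (minimum count 10) and libraries scaled by TMM. The race effect was tested, two-sided, in R 4.3.3 with edgeR 4.0.16 by its quasi-likelihood test, adjusted by Benjamini-Hochberg over all 14172 genes, with a threshold of 0.05. SE were derived from the fold change and F. P-values set the group difference against the spread between libraries, taken as birds. CPM intervals were not computed, and the library totals limit the precision of low genes. The pipeline was tested on simulated counts that held no outlying bird and no mix of W-linked expression. That run cannot show how the test behaves with birds like control 1 and control 4. Alternatives were DESeq2 1.42.0, voom (limma 3.58.1), scaling by RLE or by library size, other filters, single libraries left out, a W term, groups from sample titles and, chosen after seeing the data, leaving out control 1 and control 4.

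Members, lists and tests were chosen with earlier results of these data known. Genes named are those at a p under 0.05, the smallest p and most counts in each family, those with a library over 3 times the median of the other 9, and the 3 of smallest p in the partner and effector lists. Other members named, and ROBO3, PTCH1 and the markers, were added to complete the families or after their values were seen. Of 58 members 58 matched a symbol in RefSeq's genes (assembly bColLiv1.pat.W.v2), used for chromosome and span only.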

Additional observations from a re-analysis of the deposited data

Results flagged for a closer look

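In 9 of 116 tests over members and groups, 7.76%, 1 library lay farther from its group of 5 than Dixon's 95% limit on the log2 scale, where chance flags about 1 in 20. The share over all genes tested was not computed, so these flags cannot be set against those of other genes. Control 4 was high for EPHA3, at 90.7 CPM where its fellow controls had 11.2 to 19.8 CPM, and for EPHA4, at 91.9 against 46.0 to 55.1 CPM. Control 1 was high for EPHA2, at 6.96 against 1.36 to 2.10 CPM, and for PLXNB1, at 561 against 193 to 248 CPM, and low for PLXNB2, at 19.7 against 55.0 to 64.4 CPM. Race 4 was low for EFNB1, at 39.0 against 62.6 to 65.3 CPM in the other race birds, and for EPHB2, at 6.93 against 12.5 to 15.4 CPM. Race 5 was high for EPHA6, at 29.9 against 13.7 to 17.0 CPM, and low for PLXNA4, at 11 against 17.1 to 19.4 CPM.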

How the results depend on the processing

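No paired analysis was possible because the labels give the groups no shared bird numbers. By DESeq2 the calls were 261 genes and 2 members. Without control 3, control 4 and control 5 they were 3416 genes and 18 members, with 22 members not overlapping (40.5% of all genes), and with a W term 4338 and 19. Both of these fits compare control 1 and control 2 with the race birds. Groups from sample titles gave 3 genes, 0 members and 4 members not overlapping (2.61% of all genes), and leaving out control 1 and control 4 gave 40 genes, 0 members and a member median of -0.10. By plain library size scaling 1 member did not overlap (4.4% of all genes). With 1 library left out the calls were 0 to 1 gene and 0 members, the member median ran from -0.45 to -0.13 and 2 to 4 members did not overlap (5.2% to 7.48% of all genes), a count that fewer libraries make easier to reach.

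The 43 members named by the stated rules gave 860 log2 fold changes under 20 alternatives, of which 71 changed sign. With groups from sample titles they were EFNA3 at 0.11, EFNB2 0.44, EPHA3 0.51, EPHA4 0.055, EPHA5 0.65, EPHA6 2.07, NTN4 -0.19, NTNG1 1.93, NTNG2 -0.34, PLXNA2 0.034, ROBO2 0.37, SEMA3A 0.57, SEMA3E 1.63, SEMA6A -0.32, SLIT1 0.44, UNC50 0.043 and UNC5A 0.40. Without control 3, control 4 and control 5 they were EFNB2 at 0.51, EPHA3 0.45, EPHA5 0.28, EPHA6 0.45, NTNG1 0.45, NTNG2 -0.31, ROBO2 0.19, SEMA3A 0.998 and SEMA3E 0.20, and with a W term the same genes, with SEMA3A at 0.997, EPHA5 0.27 and NTNG2 -0.315. Without control 1 and control 4 they were EFNB2 at 0.15, EPHA3 0.16, EPHB3 0.039, PLXNA2 0.0088, ROBO1 -0.046, SEMA4B 0.22 and SEMA4G 0.15. Plain library size gave PLXNA2 0.028 and UNC5C 0.12, and limma voom EFNB2 0.036. With 1 library left out the ranges that crossed 0 were EFNB2 -0.55 to 0.39, EPHA3 -0.82 to 0.33, EPHB3 -0.64 to 0.17, NTNG2 -0.032 to 0.30, PLXNA2 -0.28 to 0.040, PLXNC1 -0.14 to 0.70, ROBO1 -0.075 to 0.14, SEMA3A -0.68 to 0.18, SEMA3E -2.18 to 0.10, SEMA4G -0.51 to 0.27, SEMA6C -0.70 to 0.14, SLIT3 -0.045 to 0.15 and UNC5C -0.10 to 0.085. Members outside the 43 are not in these counts and ranges, and some of them changed sign too. Without control 1, PLXNB1 stood at 0.20, PLXND1 at 0.19 and ROBO4 at 0.19. PLXNA4 stood at 0.42 without control 4, and EPHA7 at 0.59 without control 3, control 4 and control 5. The title link moves 6 tables to the other group, and the W term leaves control 1 and control 2 as the comparison. For plain library size and limma voom the cause of the changes was not tested.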
